A study of Homo sapiens with 12 samples.

Results

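Interferon-stimulated genes are the transcripts that a cell raises when interferon, or an infection that elicits it, reaches it. They were followed here in Calu-6 lung cancer cells after knockdown of *LAPTM4B* and after withdrawal of serum. The group was a list of 44 genes of the pathway, chosen with earlier results of these data known. A gene entered where an array feature carried its symbol and no other, and the feature with the highest mean over all arrays was used when a gene had several. By this rule 42 of the 44 genes were measured, out of 18417 genes on 19460 such features. *STAT2* and *GBP1* were not analysed here, because neither had a feature with its symbol alone.

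Calu-6 is an established line from a human lung carcinoma, and all cells received a pool of small interfering RNAs by lipid transfection, so every group carried transfected double-stranded RNA. The 4 groups were cells with siRNA against *LAPTM4B* in 0% FBS (siLAPTM4B 0% FBS), cells with scrambled siRNA in 0% FBS (siControl 0% FBS), cells with siRNA against *LAPTM4B* in 10% FBS (siLAPTM4B 10% FBS) and cells with scrambled siRNA in 10% FBS (siControl 10% FBS). Each group had 3 biological replicates from separate transfections. The cells were harvested 72 h after transfection, when they had spent 48 h in the new medium, and their RNA was measured on 12 Affymetrix Human Gene 1.0 ST arrays. A single siRNA pool, in a single line, does not separate the effect of *LAPTM4B* from other effects of that pool. Transfection was common to all groups, and without untransfected cells its part in their levels cannot be read.

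Type I and type III interferons bind receptors whose JAK kinases phosphorylate STAT2. A complex that holds STAT2 and IRF9 then binds the interferon-stimulated response element (ISRE) in promoters, whereas interferon gamma acts through another promoter element, the gamma-activated site (GAS). The products sense viral RNA (IFIH1, DHX58), block its translation or degrade it (IFIT and OAS families), conjugate or remove the ubiquitin-like protein ISG15 (UBE2L6, HERC5, USP18), hold back viral particles (BST2) or feed peptides to class I molecules (TAP1, PSMB8, PSMB9). In epithelial cells many of these genes keep a low level without added interferon.

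The sequences before the start of 5 members are shown because their differences between groups had the smallest adjusted p among the members with a RefSeq promoter, and because they hold the elements named above. Each covers 250 bases before the gene start in build GRCh38.p14 and runs 5′ to 3′ on the strand of the gene. *PARP14* is at chr3:122680589-122680838, *IFI35* at chr17:43006534-43006783, *IFI44* at chr1:78649539-78649788 and *HERC5* at chr4:88456869-88457118, all on the plus strand, and *BST2* is at chr19:17405631-17405880 on the minus strand. Capitals mark every match to the ISRE pattern (GAAA, any 2 bases and GAAA again, on either strand) or to the GAS pattern (TTCNNNGAA), and matches that overlap run together.
PARP14: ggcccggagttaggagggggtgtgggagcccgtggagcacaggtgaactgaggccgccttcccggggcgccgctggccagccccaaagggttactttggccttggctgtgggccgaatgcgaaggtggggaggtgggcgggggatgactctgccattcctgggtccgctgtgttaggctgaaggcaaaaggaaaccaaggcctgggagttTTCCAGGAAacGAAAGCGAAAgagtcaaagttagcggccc
IFI35: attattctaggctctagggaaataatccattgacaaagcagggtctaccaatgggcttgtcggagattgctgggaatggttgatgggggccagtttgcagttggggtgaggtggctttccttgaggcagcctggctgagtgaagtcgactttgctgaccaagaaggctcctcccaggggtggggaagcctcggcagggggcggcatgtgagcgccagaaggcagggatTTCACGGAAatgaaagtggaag
IFI44: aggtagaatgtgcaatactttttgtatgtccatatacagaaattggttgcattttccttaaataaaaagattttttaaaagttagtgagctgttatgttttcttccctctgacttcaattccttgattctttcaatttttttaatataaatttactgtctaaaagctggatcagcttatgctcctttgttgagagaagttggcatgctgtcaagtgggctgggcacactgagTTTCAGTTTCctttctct
BST2: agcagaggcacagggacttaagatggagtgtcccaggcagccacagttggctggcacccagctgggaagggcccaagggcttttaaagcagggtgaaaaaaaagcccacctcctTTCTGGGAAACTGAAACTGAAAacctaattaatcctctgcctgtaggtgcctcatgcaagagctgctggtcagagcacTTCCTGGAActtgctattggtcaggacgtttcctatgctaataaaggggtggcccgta
HERC5: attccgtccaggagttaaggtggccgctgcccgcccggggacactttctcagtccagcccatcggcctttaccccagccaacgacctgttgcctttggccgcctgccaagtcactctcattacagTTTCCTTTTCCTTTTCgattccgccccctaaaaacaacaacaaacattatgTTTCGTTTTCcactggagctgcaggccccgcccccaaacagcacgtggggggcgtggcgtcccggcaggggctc

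A promoter window of 300 bases, 250 before and 50 after the start, was given by RefSeq for 35 of the 44 members. The ISRE letters occurred in 21 of these 35 windows (60%), against 3.57% of the 35116 windows of all genes. The GAS letters occurred in 8 of them (22.9%), against 7.66% of all windows. Both patterns occurred in *IFI27*, *BST2*, *EPSTI1* and *PARP14*, and neither occurred in 10 members, among them *RSAD2*, *CMPK2*, *XAF1* and *SAMD9L*. In *BST2* the first GAS match shared bases with the first of 2 overlapping ISRE matches, and in *HERC5* 2 of its 3 ISRE matches overlapped. A match describes the letters in the window and not a bound site.

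**Figure D1:**
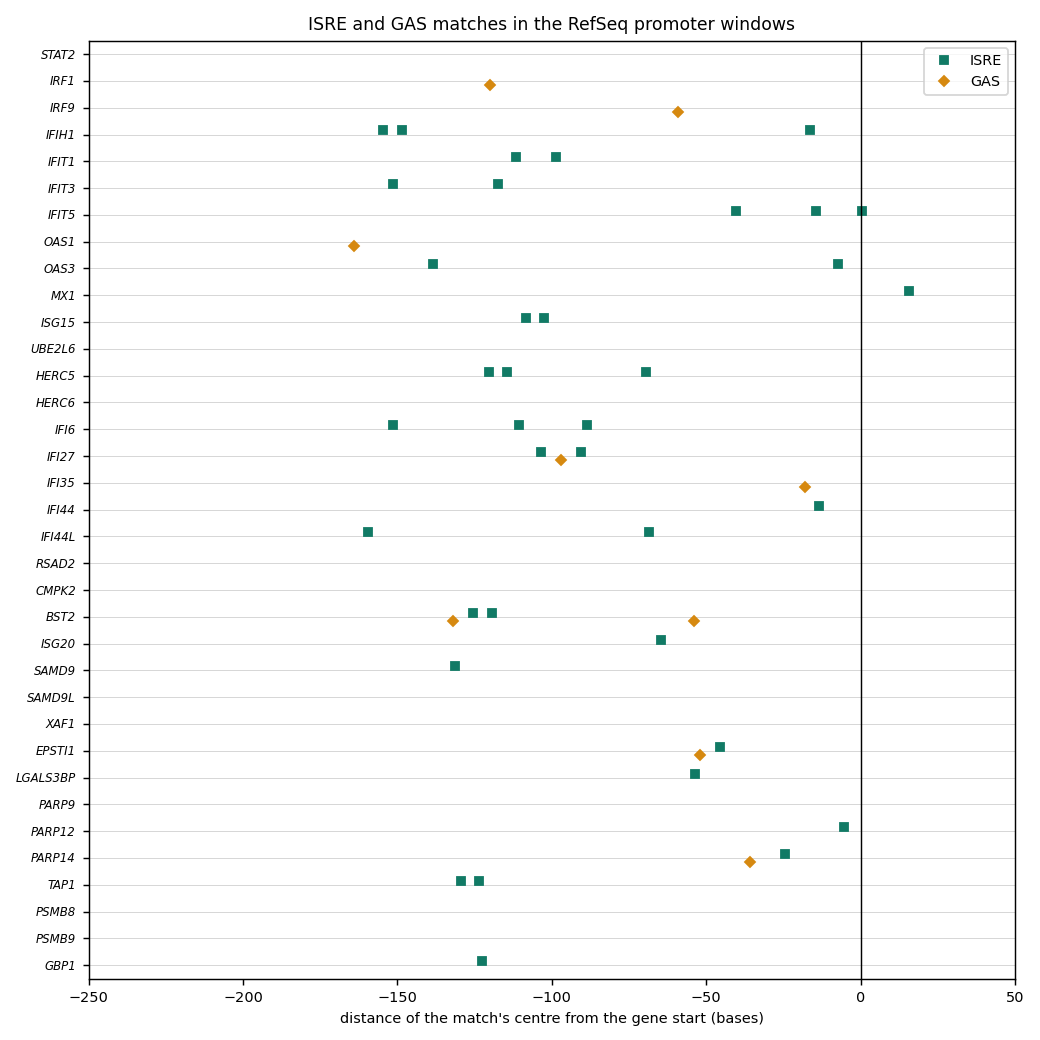
Matches to the ISRE (squares) and GAS (diamonds) patterns in the promoter windows of 35 members, by the distance of the centre of each match from the gene start in bases. The ISRE matches lie between positions -164 and 20 from the start, and 10 members have no match of either kind.

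The arrays were alike in level. Their medians lay between 7.71 and 7.76 and their lower quartiles between 6.14 and 6.19 on the log2 scale. Of the 42 members, 16 were above the median of the array on all 12 arrays, 21 were below it on all 12, and 4 (*IFI44*, *IFI44L*, *TRIM22* and *EPSTI1*) lay below the lower quartile on all 12. *HERC5* and *IFIH1* lay below the lower quartile on 6 arrays each. As a check of the labels, *LAPTM4B* read 10.45, 10.50 and 10.54 in siLAPTM4B cells in 0% FBS, against 11.94, 11.87 and 11.93 in siControl cells (log2 fold change -1.42, adjusted p = 8.6e-06). In 10% FBS it read 10.01, 10.04 and 9.99, against 11.76, 11.75 and 11.80 (log2 fold change -1.75, adjusted p = 6.4e-07). The keratins *KRT8* and *KRT18* read 12.14 or more on every array, whereas *CDH1*, another epithelial marker, read between 6.10 and 6.29. Of the 6 epithelial markers *KRT7* was called lower (-1.63 in siControl cells) and *EPCAM* higher (1.09) on withdrawal, with either siRNA. Knockdown called *KRT7* lower in 0% FBS (-0.37) and *EPCAM* higher in 10% FBS (0.51). Of the leukocyte markers *PTPRC* read 5.31 or less on every array, but *CD68* read between 9.94 and 10.69 and *LYZ* between 8.99 and 9.73. The 9 measured leukocyte markers had a mean between 7.28 and 7.41 in siLAPTM4B cells in 0% FBS, 7.30 and 7.34 in siControl cells in 0% FBS, 7.34 and 7.46 in siLAPTM4B cells in 10% FBS, and 7.32 and 7.43 in siControl cells in 10% FBS. None of these 9 was called after knockdown, and 1 (*LYZ*) was called higher and 2 (*CD68* and *CD14*) lower on serum withdrawal with either siRNA. Of the 5 measured plasmacytoid dendritic cell markers none was called in any comparison. Of the 8 fibroblast markers, 2 (*LUM* and *PDGFRB*) were called lower on withdrawal with either siRNA and after knockdown in both media. Of the others, *PDGFRA* was called higher on withdrawal with either siRNA and 5 were called in none of these comparisons. Over all features, knockdown called 2.33% in 0% FBS and 4.08% in 10% FBS, and withdrawal 26% with siControl and 20.7% with siLAPTM4B. The part of the marker shifts in the results below was not tested.

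Across the members as a whole, the group means differed little. The deviation of each member from its own mean over the 12 arrays had a median between -0.002 and 0.009 on the siLAPTM4B 0% FBS arrays, 0.005 and 0.048 on the siControl 0% FBS arrays, 0.011 and 0.019 on the siLAPTM4B 10% FBS arrays, and -0.103 and -0.021 on the siControl 10% FBS arrays. The lowest of these, -0.103, belonged to replicate 2 of siControl 10% FBS, where 12 of 42 members were above their own mean. That array stood apart from the other arrays of its group (-0.026 and -0.021), and the main counts and medians that rest on it are given with and without it. In a culture of many cells, more cells that express a gene and more RNA per cell cannot be told apart.

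**Figure D2:**
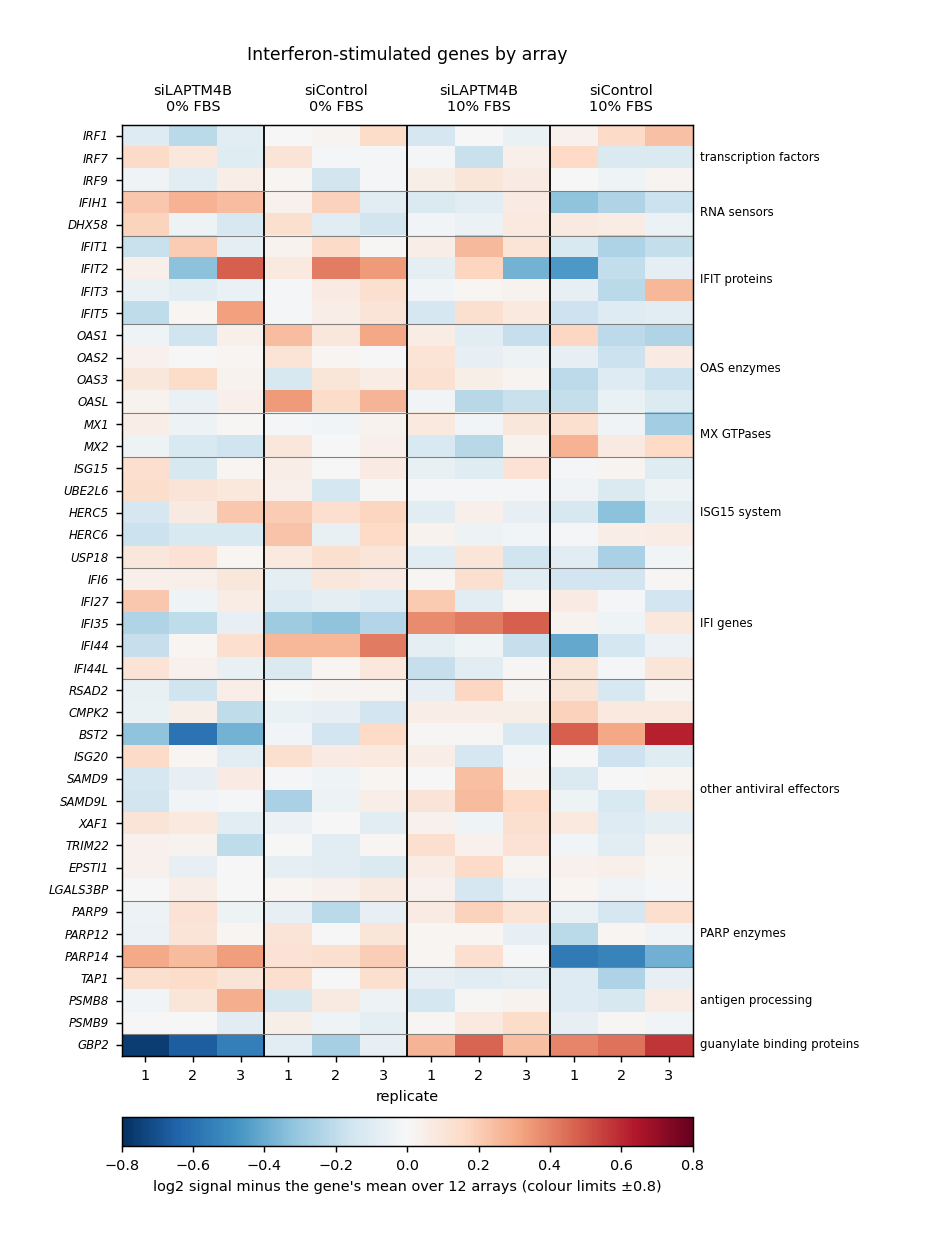
Log2 signal of each of the 42 measured members on each of the 12 arrays, minus the mean of that member over the arrays, with members ordered by role. *GBP2* and *BST2* are lowest in siLAPTM4B cells in 0% FBS, and *PARP14* is lowest in siControl cells in 10% FBS.

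Knockdown was first compared within 0% FBS, which asks how loss of *LAPTM4B* acts in starved cells. Here and below, siLAPTM4B was set against siControl over 6 arrays with limma, p was adjusted by Benjamini-Hochberg over the 19460 features, and a gene was called at an adjusted p under 0.05. In 0% FBS 1 of 42 members was called, at a share of 2.38%, and 2.33% of all features were called, with 1.74% of all features called lower. This member was lower, and it was *GBP2*, a large GTPase that is induced by interferon gamma and assembles on the vacuoles of intracellular microbes.

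*GBP2* read 8.42, 8.52 and 8.63 in siLAPTM4B cells in 0% FBS, against 9.09, 8.91 and 9.11 in siControl cells. The groups did not overlap, and the log2 fold change was -0.51 ± 0.07 (SE, n = 3 each, adjusted p = 0.011), a fold of 0.7. A second feature of *GBP2*, with a lower mean, gave -0.74 (adjusted p = 0.0033). The call was lost without replicate 1 of siControl (-0.49, adjusted p = 0.054) or replicate 2 of siLAPTM4B (-0.51, adjusted p = 0.057).

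The members next in size were also lower in siLAPTM4B cells in 0% FBS but did not pass the threshold. *BST2*, the membrane protein tetherin that retains budding virus, read 7.07, 6.80 and 7.01 in siLAPTM4B cells, against 7.37, 7.24 and 7.55 in siControl cells, without overlap (-0.43 ± 0.09, adjusted p = 0.055). *IFI44*, a cytoplasmic protein with antiviral activity, read 5.34, 5.54 and 5.66 in siLAPTM4B cells, against 5.79, 5.79 and 5.94 in siControl cells (-0.33 ± 0.08, adjusted p = 0.095). These levels are among the dim features. *OAS1*, which makes the 2′-5′ oligoadenylates that activate RNase L, read 7.65, 7.52 and 7.72 in siLAPTM4B cells, against 7.93, 7.77 and 7.99 in siControl cells (-0.27 ± 0.07, adjusted p = 0.11). Its relative *OASL*, which lacks that activity, read 7.45, 7.37 and 7.46 in siLAPTM4B cells, against 7.76, 7.57 and 7.69 in siControl cells (-0.25 ± 0.06, adjusted p = 0.072). None of these 4 members had overlapping groups, as was so for 15 of the 42 members and for 21.3% of all features.

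Other members gave estimates of both signs in 0% FBS. Of the 42 estimates, 19 were above 0 (45.2%), against 53.5% of all features, and the median was -0.016, against 0.007 over all features. The 3 measured transcription factors had estimates of -0.19 (*IRF1*, adjusted p = 0.14), 0.02 (*IRF7*) and 0.02 (*IRF9*). *ISG15* had -0.03 with a 95% interval of -0.18 to 0.12, and *MX1*, a GTPase that traps viral ribonucleoproteins, had 0.01 with an interval of -0.09 to 0.11. Both intervals span 0. *HERC6* read 5.78, 5.83 and 5.83 in siLAPTM4B cells in 0% FBS, against 6.18, 5.89 and 6.11 in siControl cells. It was not called, but it was called lower without replicate 2 of siControl 0% FBS.

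In 10% FBS knockdown was called for 5 of 42 members (11.9%), while 4.08% of all features were called. Of these members 4 were higher (1.99% of all features were called higher) and 1 was lower (2.09% of all features). The higher ones were *PARP14*, *IFI35*, *IFIT1* and *OAS3*, and the lower one was *BST2*.

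*PARP14*, a mono-ADP-ribosyltransferase of the macrodomain type, read 8.62, 8.74 and 8.61 in siLAPTM4B cells in 10% FBS, against 8.04, 8.07 and 8.22 in siControl cells. The lowest siLAPTM4B array lay above the highest siControl array, and the log2 fold change was 0.55 ± 0.06 (SE, n = 3 each, adjusted p = 0.0034), a fold of 1.46. Its call was kept when any single array was left out, with estimates between 0.50 and 0.60. The gene lies near *PARP9* and *DTX3L*, with *DTX3L* and *PARP15* between *PARP9* and *PARP14* in the RefSeq gene order. *DTX3L*, the ubiquitin ligase that pairs with PARP9, was also called higher (0.27, adjusted p = 0.038), whereas *PARP9* had 0.14 (adjusted p = 0.36).

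*IFI35*, a leucine zipper protein that partners NMI, read 8.81, 8.85 and 8.91 in siLAPTM4B cells in 10% FBS, against 8.46, 8.40 and 8.52 in siControl cells. All 3 knockdown arrays were above all 3 controls, with a log2 fold change of 0.40 ± 0.05 (adjusted p = 0.006). It also stayed called without any single array, at 0.37 to 0.43. *IFIT1*, which binds RNA that lacks the methylated cap of the host, read 6.79, 7.00 and 6.85 in siLAPTM4B cells, against 6.62, 6.49 and 6.55 in siControl cells (0.33 ± 0.07, adjusted p = 0.031). This call was lost when any 1 of 4 arrays was left out, with an adjusted p of 0.13 without replicate 2 of siControl, 0.088 without replicate 3 of siControl, 0.069 without replicate 2 of siLAPTM4B and 0.095 without replicate 3 of siLAPTM4B. *OAS3* stood at the edge of the threshold, with 8.60, 8.53 and 8.50 in siLAPTM4B cells, against 8.27, 8.38 and 8.31 in siControl cells (0.22 ± 0.05, adjusted p = 0.0498), and its call was lost without any 1 of the 6 arrays (adjusted p = 0.1 to 0.14).

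*BST2* moved the other way. It read 7.40, 7.40 and 7.27 in siLAPTM4B cells in 10% FBS, against 7.87, 7.70 and 8.01 in siControl cells, and the groups did not overlap (-0.51 ± 0.08, adjusted p = 0.012). Without replicate 3 of siLAPTM4B the estimate was -0.46 and the adjusted p was 0.067. *GBP2* had -0.14 ± 0.07 (adjusted p = 0.35) in this medium by the feature used, and -0.26 (adjusted p = 0.019) by its second feature. *MX2*, a GTPase at the nuclear pore that acts on retroviruses, had -0.27 ± 0.08 (adjusted p = 0.099).

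In 10% FBS 31 of 42 estimates were above 0 (73.8%), against 51.9% of all features, with a median of 0.063, against 0.004 over all features. These estimates share the siControl 10% FBS arrays. Without replicate 2 of that group the median was 0.046, 28 of 42 estimates were above 0, and 3 members (*PARP14*, *IFI35* and *BST2*) were called. Without replicate 3 of siLAPTM4B 10% FBS, 2 members (*PARP14* and *IFI35*) were called.

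**Figure D3:**
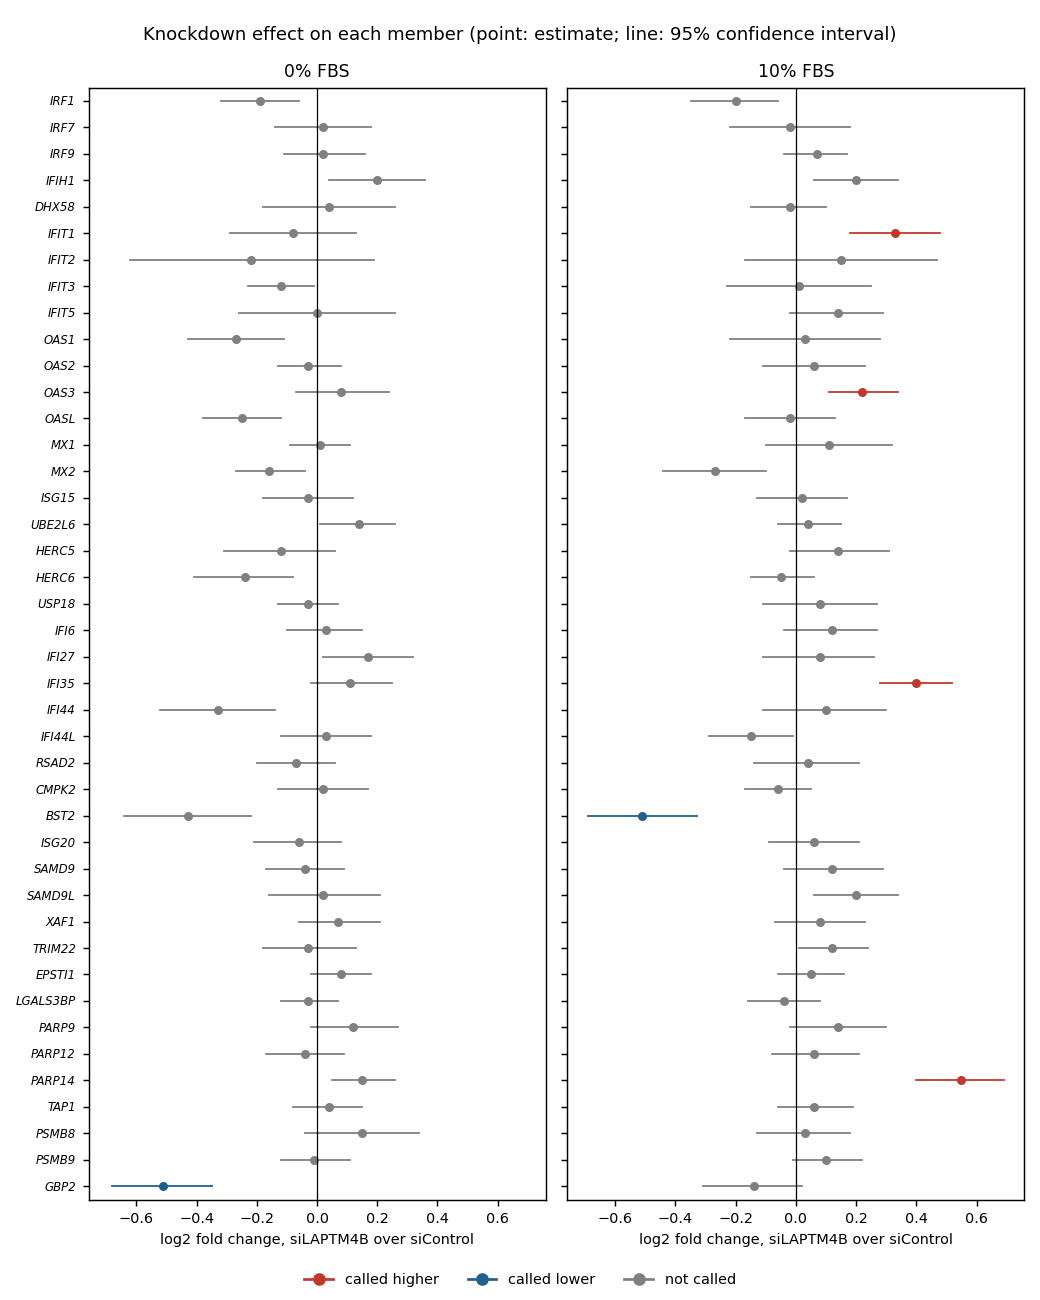
Log2 fold change of siLAPTM4B over siControl for each of the 42 members in 0% FBS and in 10% FBS, with 95% confidence intervals. *GBP2* is called lower in 0% FBS, and in 10% FBS *PARP14*, *IFI35*, *IFIT1* and *OAS3* are called higher and *BST2* lower.

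Serum withdrawal, 0% FBS set against 10% FBS, was compared separately with each siRNA. The comparison in siControl cells shares its 10% FBS arrays with the knockdown comparison in that medium, and its 0% FBS arrays with the other. In siControl cells 16 of 42 members were called (38.1%), while 26% of all features were called. Of the members 11 rose (13.2% of all features were called higher) and 5 fell (12.9% of all features). Those that rose were *PARP14*, *IFIT2*, *IFI44*, *OASL*, *HERC5*, *IFIH1*, *IFIT1*, *USP18*, *TAP1*, *ISG20* and *IFIT5*, and those that fell were *GBP2*, *BST2*, *IFI35*, *CMPK2* and *EPSTI1*.

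*PARP14* had the largest estimate among the members that rose. In siControl cells it read 8.72, 8.73 and 8.80 in 0% FBS, against 8.04, 8.07 and 8.22 in 10% FBS (0.64 ± 0.06, SE, n = 3 each, adjusted p = 9.6e-05), a fold of 1.56 with no overlap. *IFIT2*, an RNA-binding relative of IFIT1, read 6.49, 6.82 and 6.75 in 0% FBS, against 5.95, 6.21 and 6.33 in 10% FBS (0.52 ± 0.11, adjusted p = 0.01). *IFI44* read 5.79, 5.79 and 5.94 in 0% FBS, against 5.12, 5.39 and 5.48 in 10% FBS (0.51 ± 0.09, adjusted p = 0.0042). In these 3 members the lowest value without serum lay above the highest value with serum.

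*OASL* and *HERC5* rose by less. *OASL* read 7.76, 7.57 and 7.69 in siControl cells in 0% FBS, against 7.23, 7.37 and 7.31 in 10% FBS (0.37 ± 0.06, adjusted p = 0.0026). *HERC5*, the main ligase for ISG15 in human cells, read 6.32, 6.25 and 6.29 in 0% FBS, against 5.99, 5.79 and 6.03 in 10% FBS (0.35 ± 0.07, adjusted p = 0.0057). *USP18*, the protease that takes ISG15 off its targets and dampens the type I receptor, had 0.23 ± 0.06 (adjusted p = 0.031), whereas *ISG15* itself had 0.07 ± 0.05 (adjusted p = 0.35). *IFIT1* read 6.77, 6.89 and 6.75 in 0% FBS, against 6.62, 6.49 and 6.55 in 10% FBS (0.25 ± 0.06, adjusted p = 0.012), without overlap. *IFIT5*, its neighbour on chromosome 10, had 0.16 ± 0.05 (adjusted p = 0.034). Of the 4 IFIT genes 3 were called, and *IFIT3* was not (0.06, adjusted p = 0.73). These 3 calls were lost with all 12 arrays in the limma fit (adjusted p = 0.052 for *IFIT1*, 0.053 for *IFIT2* and 0.31 for *IFIT5*), as were those of *ISG20* and *EPSTI1*, while *OAS1* was gained.

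The RNA sensor *IFIH1*, also known as MDA5, read 6.17, 6.32 and 6.04 in siControl cells in 0% FBS, against 5.81, 5.89 and 5.96 in 10% FBS (0.29 ± 0.07, adjusted p = 0.024). The peptide transporter *TAP1* had 0.22 ± 0.06 (adjusted p = 0.028), and the exonuclease *ISG20* had 0.18 ± 0.05 (adjusted p = 0.033). *OAS1* had an estimate of 0.31 ± 0.11 (adjusted p = 0.071), with groups that overlapped, and *OAS3* had 0.17 (adjusted p = 0.1). With the replicate number as a block, *OAS1* (adjusted p = 0.026) and *OAS3* (adjusted p = 0.033) were called.

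The members that fell in siControl cells were led by *GBP2*. It read 9.09, 8.91 and 9.11 in 0% FBS, against 9.57, 9.61 and 9.75 in 10% FBS (-0.61 ± 0.07, adjusted p = 0.00041), a fold of 0.656. Its second feature gave -0.76 (adjusted p = 0.00012). *BST2* read 7.37, 7.24 and 7.55 in 0% FBS, against 7.87, 7.70 and 8.01 in 10% FBS (-0.47 ± 0.10, adjusted p = 0.0081). *IFI35* read 8.15, 8.11 and 8.20 in 0% FBS, against 8.46, 8.40 and 8.52 in 10% FBS (-0.31 ± 0.05, adjusted p = 0.0023). The groups were apart in each of these. The nucleotide kinase *CMPK2* read 8.08, 8.07 and 7.98 in 0% FBS, against 8.32, 8.21 and 8.21 in 10% FBS (-0.20 ± 0.05, adjusted p = 0.018). *EPSTI1* had -0.12 ± 0.04 (adjusted p = 0.044), and with the replicate block it was not called (adjusted p = 0.054). *CMPK2* was no longer called without replicate 3 of siControl 0% FBS (-0.17, adjusted p = 0.066).

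The count in siControl cells depended on single arrays. Without replicate 2 of siControl 10% FBS, 9 members were called, 5 higher and 4 lower, and *IFIH1*, *IFIT1*, *IFIT5*, *USP18*, *ISG20*, *EPSTI1* and *TAP1* were lost. Without replicate 3 of siControl 0% FBS 10 were called. Over the 6 arrays left out in turn, *EPSTI1* lost its call 6 times, *IFIT5* and *ISG20* 5 times, *IFIH1* and *USP18* 4 times, *TAP1* 3 times, and *IFIT1* and *CMPK2* 1 time each. *PARP14*, *IFIT2*, *IFI44*, *OASL*, *HERC5*, *GBP2*, *BST2* and *IFI35* stayed called when any single array was left out. The median over the 42 members was 0.051, against -0.015 over all features, and 0.028 without replicate 2 of siControl 10% FBS.

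Of the members called higher on withdrawal in siControl cells, 8 had a promoter window, and the ISRE letters occurred in 8 of these 8. They occurred in 2 of 4 windows of members called lower and in 10 of 21 windows of members that were not called. The GAS letters occurred in 1 of 8 windows of members called higher, in 3 of 4 of those called lower and in 4 of 21 of those not called. Over all measured members with a window, the ISRE letters occurred in 20 of 33. These shares describe few windows, and the calls behind them changed with single arrays as given above. Without replicate 2 of siControl 10% FBS, *PARP14*, *IFI44* and *HERC5* stayed called higher among those with a window. *IFIH1*, *IFIT1*, *IFIT5*, *ISG20* and *TAP1* did not. Whether the letters bear on the response to withdrawal was not tested.

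With siLAPTM4B, serum withdrawal was called for 7 of 42 members (16.7%), while 20.7% of all features were called. Of the members 3 rose (9.74% of all features were called higher) and 4 fell (11% of all features). The 3 that rose were *IFIH1*, *PARP14* and *TAP1*, and those that fell were *GBP2*, *IFI35*, *BST2* and *SAMD9L*.

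*GBP2* had the largest change of any member in any comparison. In siLAPTM4B cells it read 8.42, 8.52 and 8.63 in 0% FBS, against 9.45, 9.64 and 9.42 in 10% FBS (-0.98 ± 0.08, SE, n = 3 each, adjusted p = 1.8e-05), so that its fold was 0.507. Its second feature gave -1.23 (adjusted p = 8.4e-07). *IFI35* read 8.19, 8.23 and 8.37 in 0% FBS, against 8.81, 8.85 and 8.91 in 10% FBS (-0.59 ± 0.06, adjusted p = 0.00012). *BST2* read 7.07, 6.80 and 7.01 in 0% FBS, against 7.40, 7.40 and 7.27 in 10% FBS (-0.40 ± 0.08, adjusted p = 0.0047). These 3 members were called lower on withdrawal with both siRNAs.

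*IFIH1* read 6.35, 6.41 and 6.38 in siLAPTM4B cells in 0% FBS, against 6.02, 6.05 and 6.20 in 10% FBS (0.29 ± 0.06, adjusted p = 0.0068). *PARP14* read 8.91, 8.86 and 8.94 in 0% FBS, against 8.62, 8.74 and 8.61 in 10% FBS (0.25 ± 0.05, adjusted p = 0.011). *TAP1* read 8.61, 8.63 and 8.59 in 0% FBS, against 8.42, 8.40 and 8.41 in 10% FBS (0.20 ± 0.05, adjusted p = 0.014). These 3 members were called higher on withdrawal with both siRNAs, and none had overlapping groups with siLAPTM4B. *TAP1* lost its call without replicate 2 of siLAPTM4B 0% FBS (0.19, adjusted p = 0.071).

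*SAMD9L*, a growth-restraining antiviral protein, read 6.43, 6.56 and 6.57 in siLAPTM4B cells in 0% FBS, against 6.68, 6.83 and 6.74 in 10% FBS (-0.23 ± 0.06, adjusted p = 0.025). It lost its call without replicate 1 (adjusted p = 0.075) or 2 (0.055) of siLAPTM4B 0% FBS, or without replicate 2 (0.082) or 3 (0.066) of siLAPTM4B 10% FBS. The median over the 42 members was 0.014, against -0.006 over all features.

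**Figure D4:**
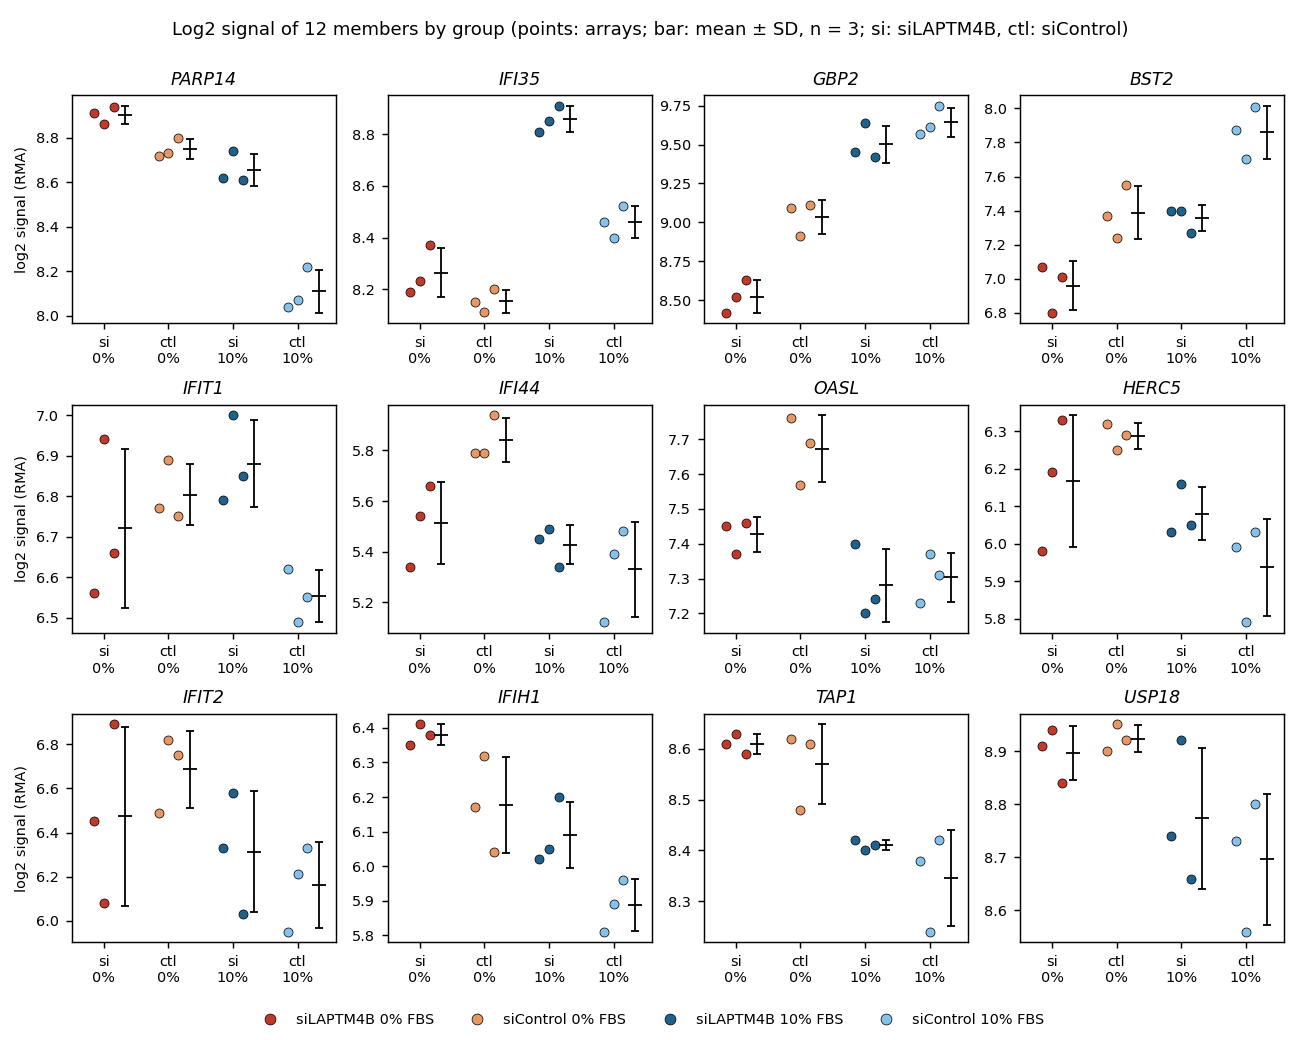
Log2 signal of 12 members in siLAPTM4B and siControl cells in 0% FBS and in 10% FBS. Each point is 1 array, and bars give the mean ± SD (n = 3). *GBP2* and *BST2* have their highest single values in siControl cells in 10% FBS, and *OASL* and *IFI44* have theirs in siControl cells in 0% FBS.

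Whether knockdown acted differently in the 2 media was tested by the interaction over all 12 arrays. It is the knockdown difference in 0% FBS minus that in 10% FBS, and it equals the withdrawal difference in siLAPTM4B cells minus that in siControl cells. By this limma test none of the 42 members was called, while 0.262% of all features were called. At an unadjusted p under 0.05, 8 of the 42 members passed, 8 with an estimate below 0 and none above it, while 11% of all features passed, 6.49% below 0 and 4.47% above.

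*PARP14* had the smallest p among the members, with an interaction of -0.39 ± 0.08 on the log2 scale (95% interval -0.56 to -0.22, adjusted p = 0.061). The knockdown difference behind it was 0.15 in 0% FBS and 0.55 in 10% FBS. The adjusted p lay between 0.033 and 0.16 over the alternatives, and the member was called without replicate 3 of siControl 10% FBS (-0.45, adjusted p = 0.033). *IFI44* had -0.43 ± 0.13 (adjusted p = 0.26), *IFIT1* had -0.41 ± 0.12 (adjusted p = 0.23), *GBP2* had -0.37 ± 0.11 (adjusted p = 0.23) and *IFI35* had -0.28 ± 0.08 (adjusted p = 0.18). The second feature of *GBP2* gave -0.47 (adjusted p = 0.061). *IFIT2*, whose arrays varied most, had -0.37 ± 0.26 (adjusted p = 0.65). In siLAPTM4B cells *IFIT2* read 6.45, 6.08 and 6.89 in 0% FBS, against 6.33, 6.58 and 6.03 in 10% FBS, and *IFIT1* read 6.56, 6.94 and 6.66, against 6.79, 7.00 and 6.85. *IFI44* read 5.34, 5.54 and 5.66 in siLAPTM4B cells in 0% FBS, against 5.45, 5.49 and 5.34 in 10% FBS. In each of these 3 members the siLAPTM4B groups overlapped.

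The estimates leaned below 0 over the members. Of the 42, 13 were above 0 (31%), against 49.7% of all features, and the median was -0.102, against -0.001 over all features. All 4 IFIT genes, all 4 OAS genes and all 3 PARP genes had negative estimates. Other roles did not: both RNA sensors and 2 of the 3 transcription factors had positive ones. So did 1 of the 2 MX genes and 4 of the 10 other antiviral effectors. Without replicate 2 of siControl 10% FBS the median was -0.054, and 15 of 42 estimates were above 0. Since the interaction test called none of the members, a difference between the siRNAs in the response to withdrawal was not shown for any single member.

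**Figure D5:**
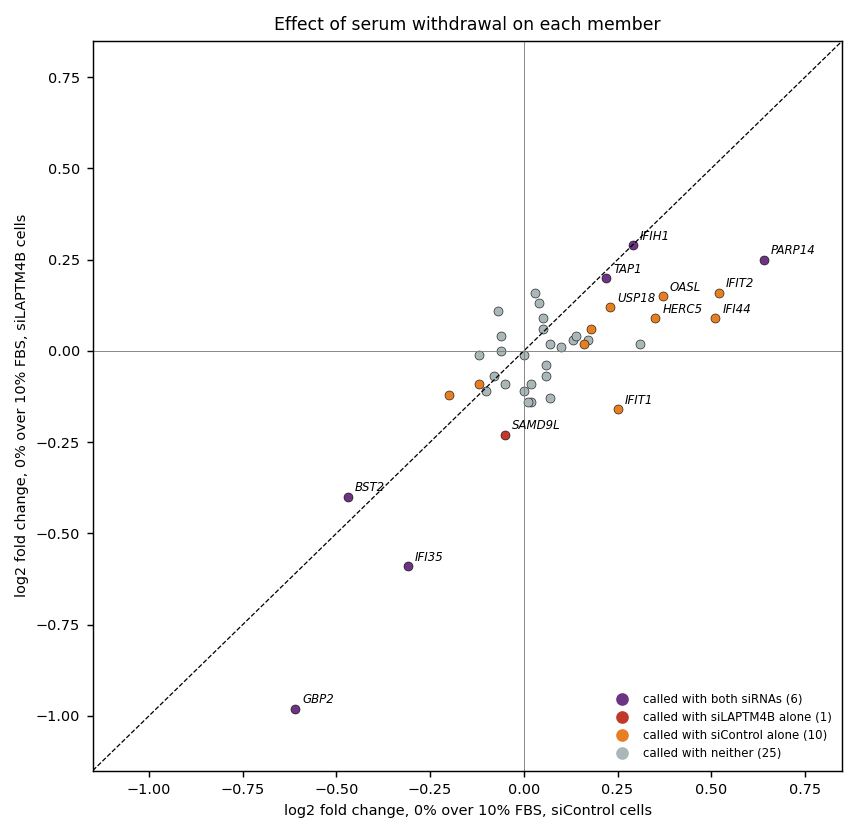
Log2 fold change of 0% FBS over 10% FBS for each of the 42 members, with siLAPTM4B cells on the vertical axis and siControl cells on the horizontal axis. The dashed line marks equal change. *GBP2* and *IFI35* lie below the line at -0.98 and -0.59 with siLAPTM4B, and *IFI44*, *OASL*, *IFIT2* and *HERC5* lie below it on the side of higher values.

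Of the 42 members, 24 (57.1%) were called in none of the 5 comparisons, against 67.6% of all features. Among them were *ISG15*, *MX1*, *MX2*, *IRF1*, *IRF7*, *IRF9*, *DHX58*, *RSAD2*, *IFI6*, *IFI27*, *IFIT3*, *OAS1*, *OAS2*, *PSMB8* and *PSMB9*. *RSAD2*, which encodes viperin, read between 5.93 and 6.25 over the 12 arrays. *ISG15* read between 8.33 and 8.59, and *LGALS3BP*, a secreted glycoprotein, between 11.84 and 12.05. The immunoproteasome subunits *PSMB8* and *PSMB9* each had 3 features with the same values, as did *TAP1*, which lies between them on chromosome 6.

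The genes around the response were read from further lists of the pathway. None of the 16 measured interferon genes was called in any comparison, as was so for 67.6% of all features. Of the 16, 11 lay below the lower quartile on all 12 arrays. The others were *IFNL1*, *IFNL2*, *IFNL3*, *IFNA6* and *IFNA13*. *IFNL3* read 9.17 or more on every array, above the array medians, and *IFNL2* lay on both sides of them. *IFNB1*, the first type I interferon made by many infected cells, read 5.08, 5.18 and 5.16 in siLAPTM4B cells in 0% FBS, against 5.07, 5.08 and 5.05 in siControl cells. Of the 9 receptor and JAK genes none was called after knockdown, against 2.33% of all features in 0% FBS and 4.08% in 10% FBS. On withdrawal 3 of the 9 were called in siControl cells (33.3%), against 26% of all features. In siLAPTM4B cells 4 were called (44.4%), against 20.7% of all features. In siControl cells withdrawal raised *IFNLR1* (0.33) and *IFNGR2* (0.15) and lowered *IFNGR1* (-0.30). In siLAPTM4B cells it raised *IFNLR1* (0.30) and lowered *IFNGR1* (-0.40), *IL10RB* (-0.36) and *IFNAR2* (-0.33). *IFNAR2*, a chain of the type I receptor, read 7.52, 7.79 and 7.89 in siLAPTM4B cells in 0% FBS, against 8.04, 8.14 and 8.19 in siControl cells, a difference that was not called (-0.39 ± 0.09, adjusted p = 0.074).

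Of the 8 measured STAT and regulator genes none was called after knockdown, against 2.33% of all features in 0% FBS and 4.08% in 10% FBS. On withdrawal 5 of the 8 were called in siControl cells (62.5%), against 26% of all features. In siLAPTM4B cells 3 were called (37.5%), against 20.7% of all features. Withdrawal in siControl cells raised *STAT3* (0.23) and *IRF2* (0.18) and lowered *SOCS3* (-0.51), *SOCS1* (-0.26) and *PTPN2* (-0.20), of which the SOCS proteins and PTPN2 restrain JAK signalling. In siLAPTM4B cells it raised *STAT3* (0.21) and lowered *SOCS3* (-0.30) and *PTPN2* (-0.26).

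Of 15 genes of nucleic acid sensing, none was called after knockdown in 10% FBS, where 4.08% of all features were called. In 0% FBS 1 was called (6.67%), against 2.33% of all features. This was *CGAS*, the sensor of cytosolic DNA. It read 8.55, 8.72 and 8.74 in siLAPTM4B cells in 0% FBS, against 9.07, 9.00 and 9.01 in siControl cells (-0.36 ± 0.06, adjusted p = 0.02). On withdrawal in siControl cells 5 of the 15 rose and 2 fell, where 13.2% of all features were called higher and 12.9% lower. *STING1*, the adaptor that receives the signal of CGAS, rose by 0.79 (adjusted p = 4.8e-06) and *CGAS* by 0.45 (adjusted p = 0.0002), and *MYD88*, *RIGI* and *TBK1* rose by 0.30, 0.26 and 0.19. *MAVS*, the mitochondrial adaptor of the RNA sensors, had -0.30 and *TRIM25* had -0.17. In siLAPTM4B cells *STING1* (0.85) and *MYD88* (0.24) rose, *MAVS* fell (-0.26), and *CGAS* had 0.11 (adjusted p = 0.35). The interaction for *CGAS* was -0.35 (adjusted p = 0.15).

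Among 34 further interferon-induced genes, 1 was called after knockdown in 0% FBS (2.94%), against 2.33% of all features. In 10% FBS 3 were called (8.82%), against 4.08% of all features. *APOL6* was lower in 0% FBS, with 8.32, 8.35 and 8.49 in siLAPTM4B cells, against 8.80, 8.65 and 8.81 in siControl cells (-0.37 ± 0.06, adjusted p = 0.025). *GBP3*, a relative of *GBP2*, had -0.36 ± 0.09 (adjusted p = 0.097) in 0% FBS and 0.08 in 10% FBS. In 10% FBS *DTX3L* was higher, and *TNFSF10* (-1.09) and *IFITM1* (-0.27) were lower. On withdrawal in siControl cells 3 of the 34 rose and 10 fell, where 13.2% of all features were called higher and 12.9% lower. In siLAPTM4B cells none of the 34 rose and 8 fell, where 9.74% of all features were called higher and 11% lower. *TNFSF10*, *IFI30*, *TRIM14* and *IFI16* were the 4 with the smallest adjusted p among those that fell in siControl cells (-1.94, -0.63, -0.62 and -0.44). The same genes fell in siLAPTM4B cells (-1.01, -0.53, -0.59 and -0.41). All 6 values of *TNFSF10* in 0% FBS lay below the lower quartile of their array, so its differences there rest on dim signal. Those that rose in siControl cells were *TRIM5* (0.25), *GBP3* (0.26) and *DDX60* (0.29).

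Of 9 measured class I presentation genes outside the members, none was called after knockdown in 0% FBS, where 2.33% of all features were called. In 10% FBS 1 was called (11.1%), against 4.08% of all features. This was *ERAP1*, a peptide-trimming protease, which was higher (0.27, adjusted p = 0.03). On withdrawal 2 of the 9 were called in siControl cells (22.2%), against 26% of all features. In siLAPTM4B cells 3 were called (33.3%), against 20.7% of all features. Withdrawal lowered *PSME2* (-0.25) and *PSMB10* (-0.26) in siControl cells, and *PSME2* (-0.37), *TAP2* (-0.23) and *ERAP1* (-0.26) in siLAPTM4B cells.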

How the data were processed

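Expression was measured in 12 RNA samples of Calu-6 cells on 12 arrays. The deposited values are log2 signals per probe set, which the authors obtained by robust multi-array averaging (RMA) in BRB-ArrayTools. The genome build behind the annotation is not given in the sources used here. Of 33252 features, 12038 had no gene symbol and 1754 had several, and these were left out. Differences were fitted with limma 3.58.1 in R 4.3.3 on 19460 features, with Benjamini-Hochberg adjustment and a threshold of 0.05, and the procedure was tested on simulated data. Array number limits the precision, and p-values measure the spread between 3 transfections per group.

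Members and lists were chosen with earlier results of these data known. All members are accounted for. Per comparison the called members, at most 10 by adjusted p, and the 5 largest changes where under 5 were called, were given by array, with other list genes named when called, at most 4 per list and direction. Same-numbered siControl arrays in 0% and 10% FBS deviated together (correlations 0.37, 0.13 and 0.2), and the fit with the replicate block called 17 members, against 16 without it, with *OAS1* and *OAS3* gained and *EPSTI1* lost. Promoters were read from RefSeq (GRCh38.p14) and searched on both strands without mismatches. Alternatives covered the filter, centring, variance model, feature choice, adjustment, replicate block, the methods' t-test and each array left out.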

Additional observations from a re-analysis of the deposited data

Results flagged for a closer look

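The effect of knockdown on *TNFSF10*, the death ligand TRAIL and an interferon-induced gene outside the 42 members, differed between the media by the interaction test. It read 5.48, 5.56 and 5.50 in siLAPTM4B cells in 0% FBS, against 5.77, 5.55 and 5.69 in siControl cells (log2 fold change -0.16, adjusted p = 0.27). In 10% FBS it read 6.52, 6.35 and 6.69 in siLAPTM4B cells, against 7.54, 7.52 and 7.77 in siControl cells (-1.09, adjusted p = 0.0011). The interaction was 0.93 ± 0.12 on the log2 scale (SE, 12 arrays, 95% interval 0.66 to 1.20, limma adjusted p = 0.0083). All 6 values in 0% FBS were below the lower quartile of their array, where a difference between the siRNAs may not be detectable. How far the size of the interaction depends on dim signal in 0% FBS was not tested, so the test alone does not settle a difference in the RNA.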

How the results depend on the processing

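After knockdown in 0% FBS the number of members called, 1, was 0 with all features in the adjustment and with the methods' t-test after adjustment. It was 2 with dim features left out or with all 12 arrays in the fit, and 3 with arrays centred on their medians. With a prior variance that was robust and followed intensity it was 4. At an unadjusted limma p under 0.01, 8 of the 42 members passed, against 6.63% of all features. In 10% FBS, 5 became 2 with all features in the adjustment and 0 with the t-test (adjusted p = 0.072 for *PARP14* and 0.066 for *IFI35*). For withdrawal in siControl cells, 16 became 10 and 5 under those settings. The interaction called 1 member, *PARP14*, with that prior variance or with dim features left out. For the interaction 5 of the 42 members passed an unadjusted p under 0.01, against 3.5% of all features. With the replicate block 5 members were called after knockdown in 0% FBS (*OAS1*, *OASL*, *IFI44* and *BST2* in addition to *GBP2*) and 4 in 10% FBS, where *OAS3* was lost. It called 7 on withdrawal in siLAPTM4B cells and 0 for the interaction. Same-numbered arrays deviated together unevenly, with correlations of 0.39, 0.069 and 0.18 between the siRNAs in 0% FBS. Between the siRNAs in 10% FBS they were 0.37, 0.15 and -0.079. Between the media in siLAPTM4B cells they were 0.32, 0.13 and -0.17.

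With single arrays left out, the counts lay between 0 and 2 for knockdown in 0% FBS, 2 and 4 in 10% FBS, 9 and 14 for withdrawal in siControl cells, 5 and 8 in siLAPTM4B cells, and 0 and 1 for the interaction. The medians lay between -0.024 and -0.007, 0.046 and 0.082, 0.028 and 0.063, -0.038 and 0.010, and -0.116 and -0.054 in the same order. Of the other settings none reversed a direction. For named members 432 values kept their direction and side of the threshold, 22 passed it and 42 no longer did. Dim signal limits *IFI44*, *IFI44L*, *TRIM22* and *EPSTI1* on all 12 arrays, and 10 members, these included, on at least 1 array. With dim features left out, withdrawal in siControl cells called 12 members, and *IFIH1*, *HERC5*, *IFI44* and *EPSTI1* were lost.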
